A study of Mus musculus with 5 samples.

Results

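The translation initiation and elongation factors were taken as every row of the count tables whose gene symbol begins with Eif1 to Eif6 or with Eef1 or Eef2 and goes on in lower-case letters and digits. Symbols beginning with Eif2ak, which are kinases, and pseudogene symbols were left out. The rule found 77 members among 40879 gene symbols, the same 77 in each of the 5 libraries. Of these, 16 had no count in any library and 61 had at least 1 count. A member was treated as measured in a pair of libraries when its mean level there was at least 10 CPM (counts in each 1e6, scaled between libraries by edgeR's TMM factors), and 58 members passed in every pair described here. Eef2k, Eef1a2 and Eif2c5 had counts but did not pass, and Eif2c5, which only shares the letters of the rule, had 1 count in all.

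Messenger RNA was measured by 3′-end sequencing in the murine microglial line BV-2, with 1 library in each of 5 groups. The Control library came from cells labelled as normal control, and the UPM library from cells exposed to urban particulate matter at 50 µg/mL for 23 h. The other 3 libraries came from cells that met the same particles after 1 h with the antidepressant trazodone (TZ) at 1.25, 2.5 or 5 µg/mL, and are called TZ1.25, TZ2.5 and TZ5. No library had trazodone without particles, and the sources used here do not say whether Control received a vehicle.

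Initiation factors bring the small ribosomal subunit, the initiator transfer RNA and the messenger together. eIF1, eIF1A, eIF3 and eIF5 act on the small subunit, eIF2 carries the initiator transfer RNA and is recharged by eIF2B, and the cap-binding complex of eIF4E, eIF4G and the helicase eIF4A recruits the messenger, while 4E-binding proteins hold eIF4E back. eIF5B joins the subunits, eEF1A delivers aminoacyl transfer RNA, eEF1B recharges eEF1A, eIF5A relieves stalled ribosomes and eEF2 moves the ribosome along. These messengers code for proteins that are also regulated after synthesis, in particular by phosphorylation, which RNA counts do not show.

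The libraries held 6829720 to 7696168 counts, and a count of 0 allows up to 3 counts, or 0.390 to 0.439 CPM. Members took 1.59% of all counts in Control, 1.5% in UPM, 1.49% in TZ1.25, 1.54% in TZ2.5 and 1.54% in TZ5. All 12 microglial markers examined were above 3 counts in every library, with a summed level of 4062 to 4413 CPM. Among them P2ry12 had only 0.666 to 1.60 CPM and Tmem119 3.06 to 7.45. By the same count, 1 of 6 neuronal, 0 of 5 astrocyte, 1 of 5 oligodendrocyte and 2 of 4 endothelial markers passed. Summed markers of neurons reached at most 1.80 CPM, of astrocytes 1.73, of oligodendrocytes 3.90 and of endothelial cells 16.9, with Aqp4, Mog and Mobp at 0. In bulk RNA, fewer cells and less RNA per cell cannot be told apart. The labels do not say how many cultures a library came from, and p-values below measure only scatter of single libraries around a dose line. In edgeR that scatter was taken mostly from all tested genes together, with 63.5 prior against 2 residual degrees of freedom for the gene itself.

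The 16 rows at 0 were mostly paralogs of genes with counts, namely Eif1ad2 to Eif1ad8, Eif1ad15, Eif1ad16, Eif1ad19, Eif2s3y, Eif4a3l1, Eif4e1b, Eif5a2, Eef1ece2 and Eef1akmt3. Eif5a supplied every count of the pair of Eif5a and Eif5a2, and Eif2s3x every count of the pair of X- and Y-linked eIF2 gamma genes. Eef1a2, the eEF1A form of muscle and neurons, had 1 count, in TZ2.5, while Eef1a1 had 7932 counts in Control and 8502 in UPM.

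A sequence feature of the members that the rule did not use was the hexamer CACGTG, the core of an E-box read by Myc and related factors. Windows from 250 bases before to 50 bases after each listed start came from RefSeq (GRCm38.p6, an older build than that of the counts), where 50 members had a start and 44 of the measured members had 56 starts. CACGTG, a palindrome and therefore the same on both strands, lay in 13 of the 56 member windows (23.2%), against 10.5% of 8525 windows of all measured genes. The 5 stretches shown, each 30 bases long with the hexamer in capitals, are from factors whose values are described below, including Eif3a and Eif5a, which moved in opposite directions with dose.
Eif3a (chr19:60790654-60790683, minus strand, hexamer at offset 22 from the start): ccgcgagggaatCACGTGgttccttccttt
Eif5a (chr11:69921443-69921472, minus strand, offset -74): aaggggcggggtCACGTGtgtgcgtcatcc
Eif4e (chr3:138527192-138527221, plus strand, offset -64): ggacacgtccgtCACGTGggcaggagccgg
Eif4g1 (chr16:20672661-20672690, plus strand, offset -54): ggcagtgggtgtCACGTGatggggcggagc
Eef2 (chr10:81176576-81176605, plus strand, offset -43): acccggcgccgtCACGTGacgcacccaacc
The other member windows with CACGTG belonged to Eif1b, Eif3f, Eif3k, Eif4a1, Eif4h and Eef1akmt4. CCGGAAG, an ETS-type site searched on both strands, lay in 32.1% of member windows and 20.1% of all windows. TGATGNAA, an ATF4-type site searched on both strands, lay in 1.79% of member windows (Eif2s3x) and 2.16% of all. A start at C followed by at least 4 C or T, the terminal oligopyrimidine pattern, was listed for Eif2s3x and Eif3f, 3.57% of member starts against 2.33% of all. The pattern was read only at the exact base listed as the start, so a start listed a few bases off would be missed. A gene without a match, elongation factors included, is therefore not shown to lack the pattern. A match is a run of letters, not a bound site, and no overlap between these motifs was searched for.

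With particles alone, the members were mostly a little lower than in Control. Of the 58 measured members, 44 had a fold (UPM divided by Control) below 1 and 14 above 1, while 4067 of all 8282 measured genes were above 1. The median log2 fold was −0.10 for the members and −0.00 for all genes. A member was called when its fold was at least 1.5 in either direction, its 95% counting interval excluded 1 and it was measured, a rule of size and counting error with no replicate check. By that rule 0 members were higher, against 1.67% of all measured genes, and 1 member was lower, against 1.41% of all. The 1 called was Eif2s3x, the gamma subunit of eIF2, at 0.625 (95% interval 0.553 to 0.706). With intervals read at any size of fold, 25 of 58 members lay below 1, against 18.6% of all measured genes, and 5 above, against 15.4% of all. These shares are not like for like, since intervals narrow as counts rise. A mean of 30 CPM was reached by 50 of the 58 members, against 5351 of the 8282 genes.

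More members were called at the higher trazodone doses, though the counts stayed small. The 3 trazodone libraries were each compared with the same UPM library, so these comparisons share its error. In TZ1.25 against UPM, 0 of 58 were higher (1.19% of all genes were) and 0 lower (1.03% of all), with a median log2 fold of 0.00. In TZ2.5 against UPM, Eif3j1, Eif4e3 and Eef1d were higher, 3 of 58 against 2.67% of all, and 0 were lower against 1.73% of all. In TZ5 against UPM, Eif3j1, Eif4e3, Eif4a2, Eef2kmt and Eif3a were higher, 5 of 58 against 3.78% of all. Eif5a and Eif4ebp2 were lower there, 2 of 58 against 2.8% of all, a share close to the background. With counts this small, no share of called members is read as above the background. The median log2 fold of the members was 0.06 in TZ2.5 and 0.08 in TZ5, beside −0.01 and 0.00 for all genes. Scaling by total counts alone gave 6 higher, with Eef1d added, and 1 lower, since Eif4ebp2 fell just short.

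**Figure D1:**
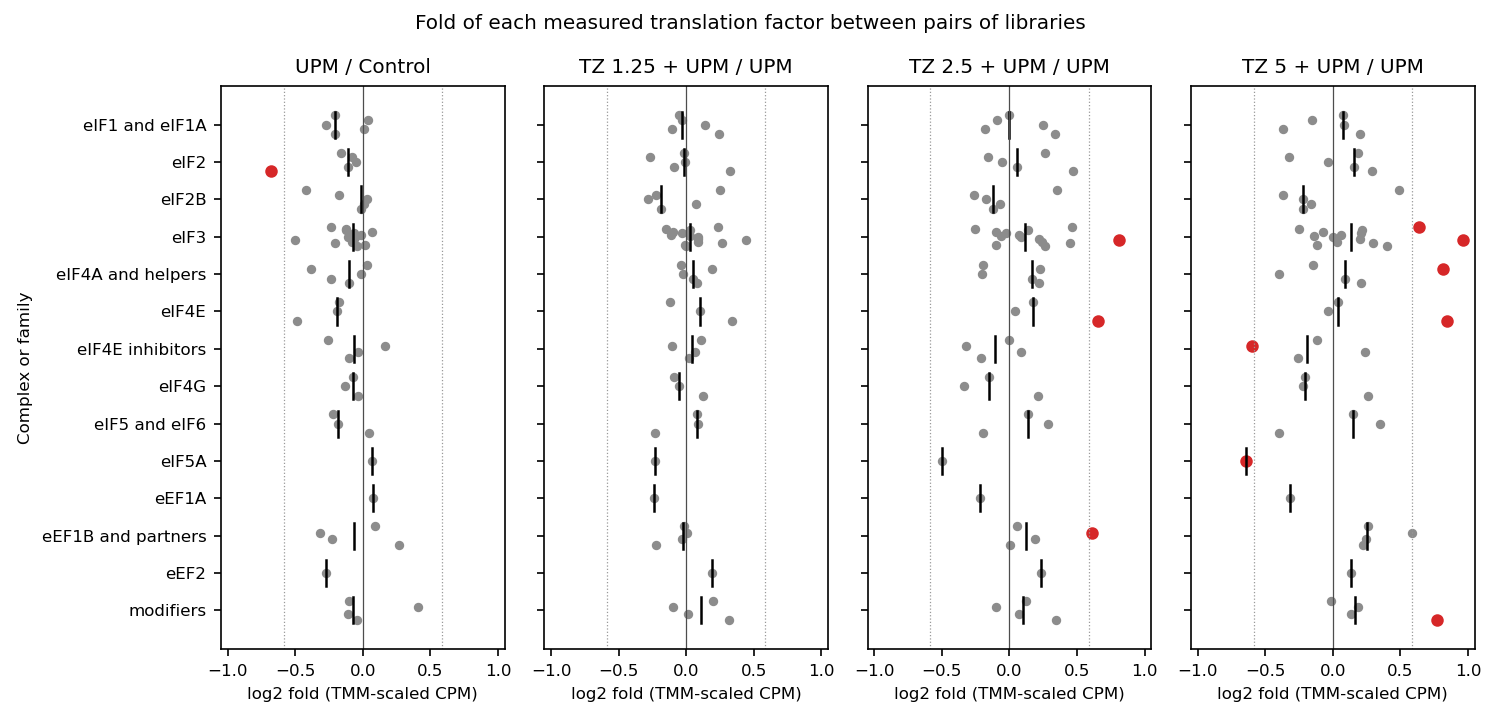
Fold between 2 libraries (log2 of TMM-scaled CPM, horizontal axis) of each measured member, 1 dot per gene, in rows by complex or family, with UPM against Control on the left and each trazodone library against UPM to the right. Red dots passed the fold of 1.5 with its interval, dotted lines mark that fold, and black bars are medians; 1 red dot stands on the left, 0 in TZ1.25, 3 in TZ2.5 and 7 in TZ5.

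Across all 5 libraries, the trazodone dose was tested as a number in edgeR beside a term for particles. Control is the only library without particles, so the dose estimate rests on UPM, TZ1.25, TZ2.5 and TZ5. Of 59 members tested, 5 rose with dose, against 2.79% of 12381 genes, and 4 fell, against 2.91% (quasi-likelihood test, Benjamini-Hochberg adjusted p under 0.05). The 5 were Eif3j1, Eif4e3, Eef1d, Eif3a and Eif5b, and the 4 were Eif5a, Eif4ebp2, Eif4a3 and Eif1ax. Before adjustment, 13 of 59 members had an edgeR p under 0.05 upward, against 8.5% of all genes, and 10 downward, against 9.12% of all. Members have more counts than most tested genes, and more counts make a call easier, so these shares are not like for like. DESeq2 gave an adjusted p to 42 members and 3110 genes. It called 4 members higher and 4 lower, beside 175 genes higher and 154 lower. No share is read as above the background. The calls were spread over 8 complexes or families, and of the 14 eIF3 genes 2 rose and 0 fell. Without the UPM library the count was 2 rising and 2 falling, beside 99 and 103 of 12207 genes. Without TZ5 it was 5 rising and 2 falling, beside 215 and 155 of 12289 genes. Eif3j1, Eif5a and Eef1d passed under all 8 alternative settings.

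**Figure D2:**
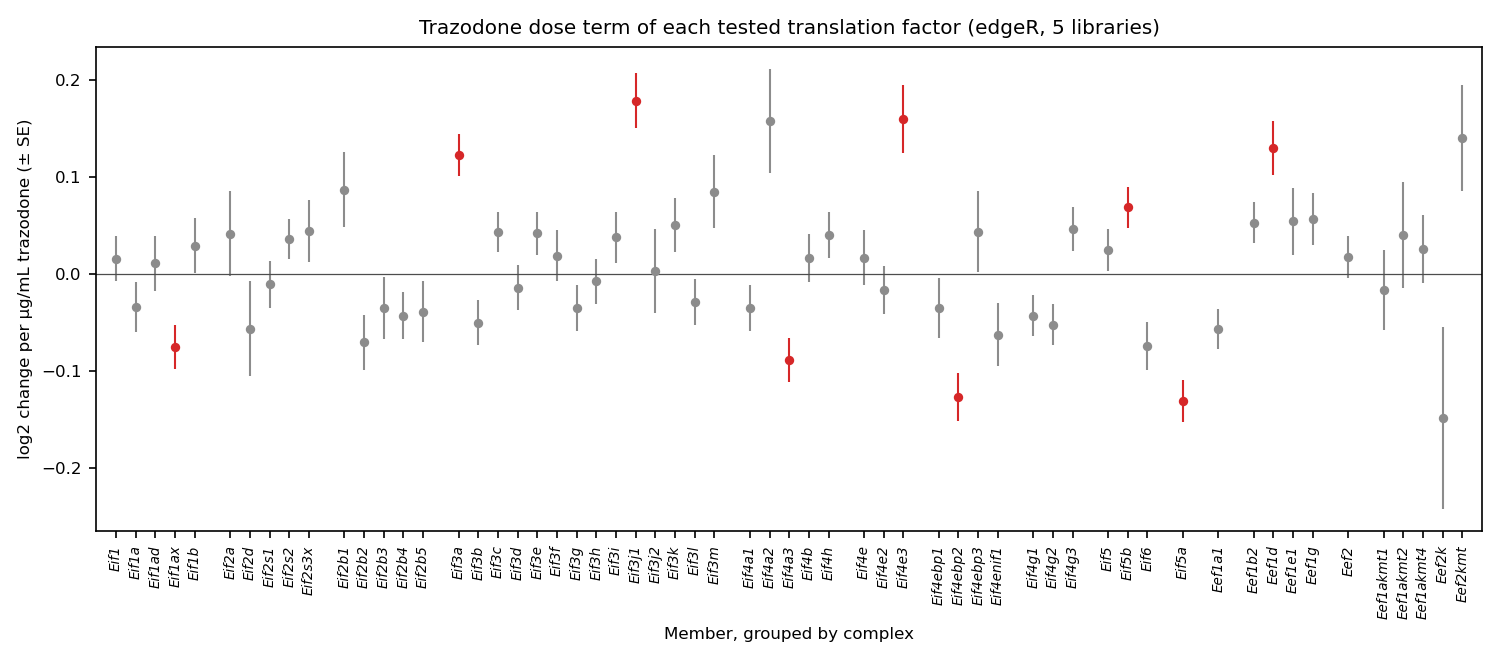
Estimated change per µg/mL of trazodone (log2, vertical axis, with its standard error as a bar) of the 59 tested members, ordered by complex along the horizontal axis. Red points passed the edgeR adjusted threshold: 5 lie above 0 and 4 below, and of the rest only Eif4a2, Eef2k and Eef2kmt lie more than 0.1 from 0.

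The particle term of the same fit called 0 members higher, against 0.121% of all genes, and 0 lower, against 0.0485% of all. Unadjusted, 1 of 59 members had an edgeR p under 0.05 upward, against 4.44% of all genes, and 5 downward, against 3.41% of all. DESeq2 also called 0 of 54 members in each direction, beside 8 higher and 3 lower of 6307 genes. Eif2s3x had an estimate of −0.50 (SE 0.14, edgeR adjusted p = 0.180) and passed only without TZ5 (edgeR adjusted p = 0.00504).

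Among the factors that open the small subunit for scanning, Eif1ax alone was called. Eif1ax, the X-linked eIF1A gene, stood at 344 CPM in Control, 347 in UPM, 323 in TZ1.25, 307 in TZ2.5 and 269 in TZ5. Control and UPM were level and the 3 trazodone libraries were lower, TZ5 most of all. The dose term fell by 0.08 per µg/mL (SE 0.022, edgeR adjusted p = 0.0309), and the call was lost with total-count scaling (0.0732) and without UPM (0.284), TZ1.25 (0.0668) or TZ5 (0.474). Its paralog Eif1a ran from 113 to 126 CPM and was not called (edgeR adjusted p = 0.546), so that Eif1a made up 26.3% of the counts of the pair in Control and 29.6% in TZ5, with 95% binomial intervals of 24.8 to 27.8% and 27.9 to 31.4%. Eif1, which guards start-codon choice, ran from 221 to 264 CPM with Control highest, and was not called by dose (edgeR adjusted p = 0.781).

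Of eIF2, the carrier of initiator transfer RNA, only the gamma subunit stood out, and only in the particle comparison. Eif2s3x had 92.0 CPM in Control, 57.5 in UPM, 72.1 in TZ1.25, 79.7 in TZ2.5 and 70.3 in TZ5. Every particle-exposed library was below Control, and UPM was the lowest. Against UPM the trazodone folds were 1.25, 1.39 and 1.22 in order of dose, none past 1.5, and the dose term gave an edgeR adjusted p of 0.522. The alpha subunit Eif2s1, whose phosphorylation is the switch of the integrated stress response, varied only from 156 to 168 CPM across the 5 libraries, and its fold in UPM against Control was 0.965 (0.891 to 1.04). The beta subunit Eif2s2 ran from 995 CPM in TZ1.25 to 1181 in TZ5, with 1143 in Control.

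The 5 subunits of eIF2B, the exchange factor of eIF2, had no call. Eif2b2, a regulatory subunit, had 108 CPM in Control, 95.1 in UPM, 81.6 in TZ1.25, 79.3 in TZ2.5 and 73.7 in TZ5. Eif2b1, another regulatory subunit, had 35.9 CPM in Control, 26.9 in UPM, 32.0 in TZ1.25, 34.4 in TZ2.5 and 37.7 in TZ5. The values ran in opposite order along the doses, with edgeR adjusted p of 0.145 for Eif2b2 and 0.206 for Eif2b1. Eif2b5, the catalytic subunit, lay between 56.6 and 66.6 CPM. The other 4 subunits had folds below 1 in TZ5 against UPM, and Eif2b1 a fold of 1.40 (1.16 to 1.69).

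eIF3, the scaffold of the small-subunit complex, held the dose call with the smallest adjusted p among the members. Eif3j1, which codes for a loosely bound subunit also involved in recycling, had 94.9 CPM in Control, 67.2 in UPM, 91.5 in TZ1.25, 118 in TZ2.5 and 131 in TZ5. UPM was the lowest library, TZ1.25 was close to Control, and TZ2.5 and TZ5 were above it. Its fold was 0.708 (0.631 to 0.794) in UPM against Control, and against UPM 1.36 (1.21 to 1.53), 1.75 (1.57 to 1.96) and 1.95 (1.74 to 2.17) in order of dose. The dose term was 0.18 per µg/mL (SE 0.029, edgeR adjusted p = 1.58e-05). The paralog Eif3j2 stayed between 24.1 and 28.4 CPM (edgeR adjusted p = 0.983), and Eif3j1 rose from 73.6% of the pair's counts in UPM (70.2 to 76.9%) to 84.2% in TZ5 (81.9 to 86.3%). Reads of these near-identical genes may be split between them by the counting.

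Eif3a, the largest scaffold subunit, had 829 CPM in Control, 704 in UPM, 829 in TZ1.25, 971 in TZ2.5 and 1096 in TZ5. UPM was the lowest and each higher dose had a higher level. The fold in TZ5 against UPM was 1.56 (1.5 to 1.61), and the dose term 0.12 (SE 0.021, edgeR adjusted p = 6.40e-05). Without the UPM library the adjusted p was 0.0825 in edgeR. Eif3b, its partner in the scaffold, had 261, 239, 216, 200 and 201 CPM in Control, UPM, TZ1.25, TZ2.5 and TZ5. Like Eif3a it was lower in UPM than in Control, but its trazodone libraries were below UPM rather than above it, with an edgeR adjusted p for dose of 0.235. Eif3c had 941 CPM in Control, 864 in UPM, 881 in TZ1.25, 951 in TZ2.5 and 1006 in TZ5 (edgeR adjusted p = 0.254). In TZ5 against UPM the 14 eIF3 genes ran from a log2 fold of −0.25 in Eif3b to 0.96 in Eif3j1, with 9 above 0 and a median of 0.13. Summed over these genes the level was 3709 CPM in Control, 3403 in UPM and 4022 in TZ5.

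**Figure D3:**
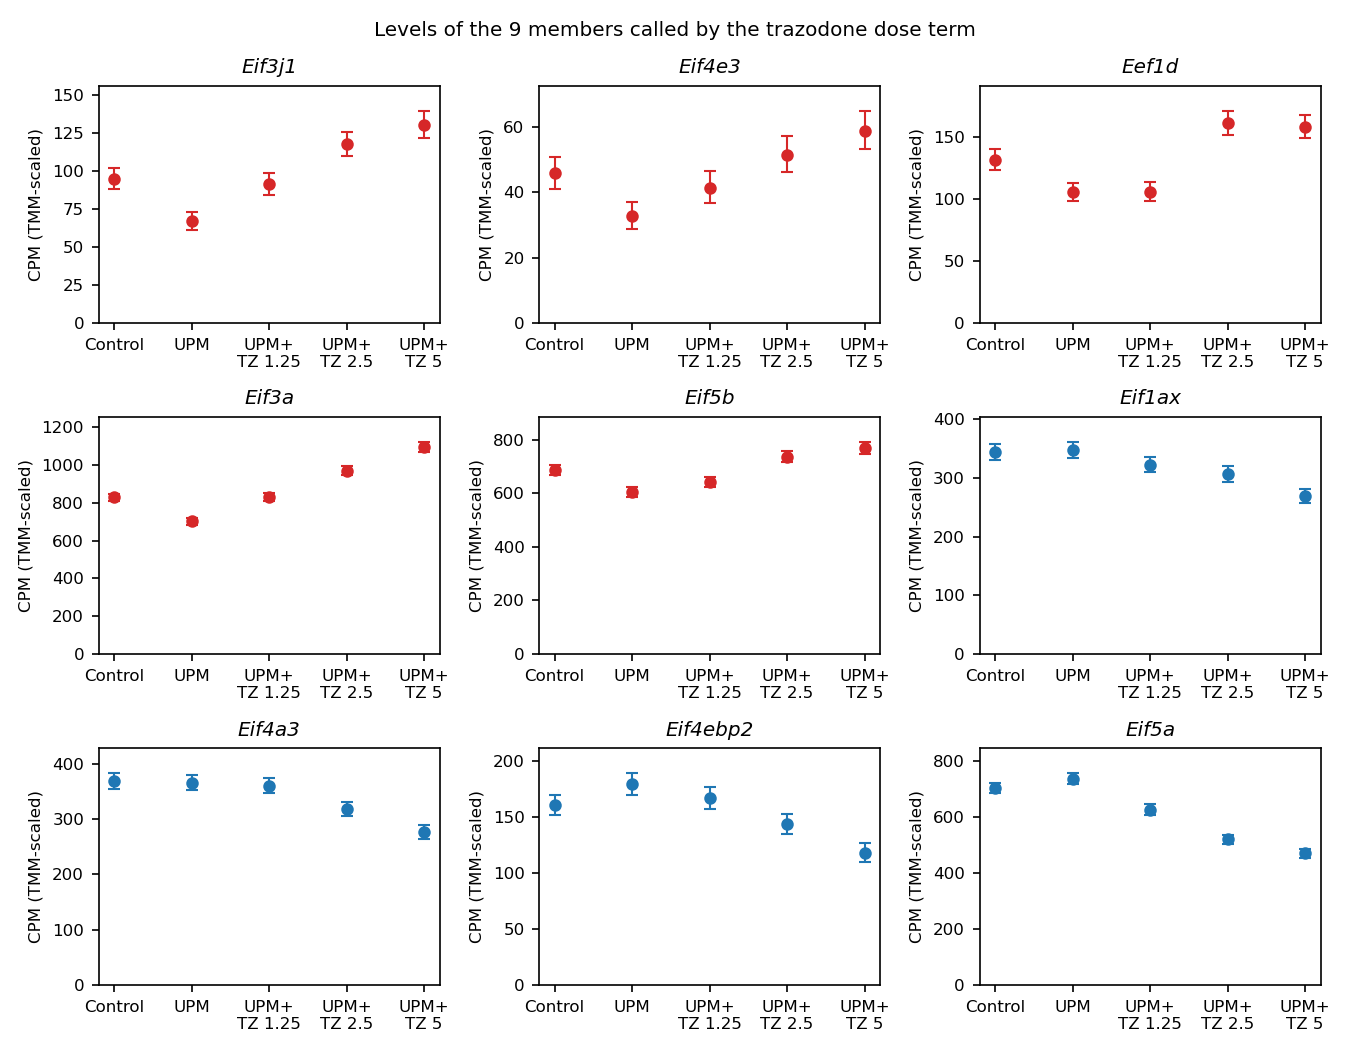
Level (TMM-scaled CPM, vertical axis from 0) of the 9 members called by the dose term in each of the 5 libraries, with 95% counting intervals as bars. In the 5 that rose (red) UPM is the lowest and TZ2.5 or TZ5 the highest, and in the 4 that fell (blue) TZ5 is the lowest.

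In the cap-binding complex, the calls lay in minor family members and inhibitors. Eif4e3, a cap-binding paralog of Eif4e, had 45.8 CPM in Control, 32.7 in UPM, 41.4 in TZ1.25, 51.5 in TZ2.5 and 58.7 in TZ5. UPM was the lowest and TZ5 the highest, with folds against UPM of 1.27 (1.07 to 1.51), 1.58 (1.34 to 1.86) and 1.80 (1.53 to 2.11). The dose term was 0.16 (SE 0.035, edgeR adjusted p = 0.00175), and 0.170 without the UPM library. Eif4e itself had 104 CPM in Control, 92.1 in UPM, 84.7 in TZ1.25, 104 in TZ2.5 and 94.6 in TZ5. Its levels had no order by dose (edgeR adjusted p = 0.816). Eif4e2, which represses capped messengers, ran from 157 CPM in TZ5 to 183 in Control (edgeR adjusted p = 0.793).

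Eif4ebp2, an inhibitor that binds eIF4E, had 160 CPM in Control, 179 in UPM, 167 in TZ1.25, 143 in TZ2.5 and 118 in TZ5. UPM was the highest library and TZ5 the lowest, below Control. The fold in TZ5 against UPM was 0.660 (0.604 to 0.720), and the dose term fell by 0.13 (SE 0.025, edgeR adjusted p = 0.000421). Without TZ5 the call was lost (edgeR adjusted p = 0.134). Eif4ebp1, the paralog that ATF4 is known to induce, had 80.4 CPM in Control, 67.2 in UPM, 72.6 in TZ1.25, 67.0 in TZ2.5 and 61.9 in TZ5, and was not called (edgeR adjusted p = 0.628). Its share of the counts of both was 33.4% in Control, 27.3% in UPM and 34.4% in TZ5. The intervals were 31.2 to 35.6%, 25.3 to 29.3% and 31.7 to 37.1%, so that UPM lay below both.

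The helicase genes split by paralog. Eif4a3, a component of the exon junction complex rather than of cap binding, had 368 CPM in Control, 366 in UPM, 360 in TZ1.25, 318 in TZ2.5 and 277 in TZ5. The first 3 libraries were level and TZ5 was the lowest. The dose term fell by 0.09 (SE 0.023, edgeR adjusted p = 0.00859), a call lost without UPM (0.0659) or TZ5 (0.393). Eif4a2 had 15.2 CPM in Control, 11.6 in UPM, 13.3 in TZ1.25, 13.6 in TZ2.5 and 20.5 in TZ5, so that only TZ5 stood above Control. Its fold in TZ5 against UPM was 1.76 (1.34 to 2.32), with a dose term just outside the threshold (edgeR adjusted p = 0.0639). Eif4a1, the main initiation helicase, stayed between 168 and 193 CPM, and its share of the counts of both went from 94.3% in UPM (93.1 to 95.4%) to 89.5% in TZ5 (87.7 to 91.1%). Eif4b, a helicase cofactor, had 160 CPM in Control, 136 in UPM and 145 in TZ5 (edgeR adjusted p = 0.794).

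The eIF4G scaffolds had no call but changed in proportion. Eif4g3 had 223 CPM in Control, 217 in UPM, 237 in TZ1.25, 252 in TZ2.5 and 260 in TZ5. Eif4g2, a form without the cap-binding-protein site, had 1416, 1295, 1248, 1026 and 1111 CPM in the same order, and Eif4g1, the classical scaffold, 931, 886, 834, 800 and 767. Eif4g3 was highest at TZ5, and Eif4g1 lowest there. Their edgeR adjusted p values were 0.275, 0.156 and 0.268. Eif4g3 took 8.68% of the family's counts in Control (8.29 to 9.09%) and 12.2% in TZ5 (11.6 to 12.7%). Eif4g2 took 55.1% in Control (54.4 to 55.8%) and 52.0% in TZ5 (51.1 to 52.8%). The share of Eif4g1 was similar in these libraries, 36.2% in Control (35.5 to 36.9%) and 35.9% in TZ5 (35.1 to 36.7%), and 38.5% in TZ2.5.

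Among the late initiation factors, Eif5b had 687 CPM in Control, 606 in UPM, 643 in TZ1.25, 738 in TZ2.5 and 770 in TZ5. UPM was the lowest, TZ1.25 was still below Control, and TZ2.5 and TZ5 were above it. The dose term was 0.07 (SE 0.021, edgeR adjusted p = 0.0400), a call lost without UPM (0.465), TZ1.25 (0.0945) or TZ5 (0.121). Eif5, which triggers GTP hydrolysis by eIF2, had 661 CPM in Control, 566 in UPM and 597 to 627 with trazodone (edgeR adjusted p = 0.611). Eif6, which keeps the large subunit from joining too early, had 177 CPM in Control, 183 in UPM, 156 in TZ1.25, 160 in TZ2.5 and 139 in TZ5. TZ5 was the lowest, just outside the threshold (edgeR adjusted p = 0.0570).

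Eif5a, the factor that carries the amino acid hypusine, had the lowest fold of any measured member in TZ5 against UPM. It stood at 705 CPM in Control, 738 in UPM, 628 in TZ1.25, 521 in TZ2.5 and 472 in TZ5. Control and UPM were the highest and each higher dose had a lower level. Against UPM the folds were 0.851 (0.818 to 0.885), 0.706 (0.677 to 0.736) and 0.640 (0.612 to 0.668). The dose term fell by 0.13 (SE 0.022, edgeR adjusted p = 2.61e-05). Of the 2 enzymes that make hypusine, Dohh, the hydroxylase, had 117 CPM in Control, 119 in UPM, 133 in TZ1.25, 109 in TZ2.5 and 77.0 in TZ5. It fell with dose by 0.14 (SE 0.029, edgeR adjusted p = 0.000544), and TZ1.25 was its highest library. Dhps, the synthase, lay between 20.6 and 29.4 CPM and was not called (edgeR adjusted p = 0.771).

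Of the elongation factors, only Eef1d, an exchange subunit of eEF1B, was called. Eef1d had 131 CPM in Control, 105 in UPM, 106 in TZ1.25, 161 in TZ2.5 and 158 in TZ5. UPM and TZ1.25 were level and low, and the 2 higher doses were level and above Control. The fold was 1.53 (1.39 to 1.67) in TZ2.5 against UPM and 1.5 (1.37 to 1.64) in TZ5, the latter just under the limit before rounding. The dose term was 0.13 (SE 0.028, edgeR adjusted p = 0.00109). The other exchange subunit, Eef1b2, had 582 CPM in Control, 621 in UPM, 613 in TZ1.25, 646 in TZ2.5 and 744 in TZ5, and the scaffold Eef1g had 89.6, 108, 92.3, 108 and 126 CPM. TZ5 was the highest library of each, with edgeR adjusted p of 0.135 for Eef1b2 and 0.243 for Eef1g.

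Eef1a1 had 1056 CPM in Control, 1111 in UPM, 943 in TZ1.25, 956 in TZ2.5 and 894 in TZ5. All 3 trazodone libraries were below Control and UPM, with a dose term of −0.06 (edgeR adjusted p = 0.106). Many processed copies of Eef1a1 exist in the genome, so its counts are less certain. Eef2, the translocase, had 1160 CPM in Control, 960 in UPM, 1093 in TZ1.25, 1128 in TZ2.5 and 1055 in TZ5 (edgeR adjusted p = 0.753). Its kinase Eef2k, which slows elongation, had only 15 counts in Control, 54 in UPM, 42 in TZ1.25, 43 in TZ2.5 and 28 in TZ5. Control was the lowest, and the fold in UPM against Control was 3.53 (1.97 to 6.74), below the level required for a call. The particle term of Eef2k was 1.82 (SE 0.50, edgeR adjusted p = 0.129).

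Among the enzymes that modify elongation factors, Eef2kmt, a methyltransferase of eEF2, had 11.6 CPM in Control, 11.2 in UPM, 14.0 in TZ1.25, 14.3 in TZ2.5 and 19.1 in TZ5. TZ5 was the highest, with a fold against UPM of 1.70 (1.29 to 2.26) and an edgeR adjusted p for dose of 0.126. Eef1akmt2, a methyltransferase of eEF1A, had the highest fold of any measured member in UPM against Control, 1.33 (0.990 to 1.79), an interval that includes 1. Eef1akmt4 stayed between 41.6 and 45.7 CPM.

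Set against Control rather than UPM, TZ5 had 2 members higher, against 3.55% of all measured genes, and 0 lower, against 2.51% of all. The 2 were Eef2kmt at 1.65 (1.25 to 2.19) and Eef1akmt2 at 1.51 (1.13 to 2.04). Eif3j1 was at 1.38 (1.25 to 1.52) there, Eif3a at 1.32 (1.28 to 1.37), Eif4e3 at 1.28 (1.11 to 1.49) and Eef1d at 1.2 (1.1 to 1.31). Eif5a was at 0.670 (0.641 to 0.7) and Eif4ebp2 at 0.738 (0.674 to 0.807). For Eif3j1, Eif3a, Eif4e3 and Eef1d, the level in UPM was below Control, so the fold against UPM was larger than that against Control.

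The sources used here do not give the strand handling or annotation behind the counts, and in the reference annotation other genes cover the 3′ ends of several called members. Rev1 on the opposite strand covers that of Eif5b, Spg11 that of Eif3j1, Alg1 that of Eef2kmt and Rfc4 that of Eif4a2. Naprt on the same strand covers that of Eef1d, and had 18 counts over all libraries. Gm20696 on the same strand covers that of Eif4e3 and had no row of counts under that symbol. Fgfr2 on the same strand covers that of Eef1akmt2 and had 0 counts. Spg11 had 257 counts over all libraries, Rev1 972, Rfc4 653 and Alg1 1770.

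The introns of members also carry small nucleolar RNAs, which guide modification of ribosomal and spliceosomal RNA and are cut from the same transcripts. The reference annotation placed 16 inside 8 members on the same strand. Of these, 15 had a row and 14 had a count, in 7 hosts. Their summed counts were 1237 in Control, 1610 in UPM, 1436 in TZ1.25, 945 in TZ2.5 and 660 in TZ5. UPM was the highest and TZ5 the lowest. Gm22988, in Eif4a1, had 67.6 CPM in Control, 95.1 in UPM, 96.2 in TZ1.25, 65.4 in TZ2.5 and 41.8 in TZ5, and fell with dose by 0.26 (SE 0.033, edgeR adjusted p = 4.60e-08). Gm24029, in the same host, had 11.4, 26.9, 15, 8.37 and 8.70 CPM and fell by 0.35 (SE 0.061, edgeR adjusted p = 7.46e-05). UPM was its highest library, 2.35 times Control (1.82 to 3.06).

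Snora41, in Eef1b2, had 26.5 CPM in Control, 27.4 in UPM, 25.4 in TZ1.25, 20.9 in TZ2.5 and 11.9 in TZ5, and fell by 0.24 (SE 0.049, edgeR adjusted p = 0.000507). Of the 10 tested for dose, 6 fell, against 2.91% of all genes, and 0 rose, against 2.79%. The share that fell among small nucleolar RNAs outside the members was not counted. In Eif4a2, Gm24616 (edgeR adjusted p = 0.00412), Snora81 (0.0287) and Gm26447 (0.0268) fell too, with folds in TZ5 against UPM of 0.522, 0.574 and 0.335. Those not called were Gm24201 in Eif4a2, Snord66 in Eif4g1, Gm23262 in Eif4g2 and Snord37 in Eef2, whose estimate was above 0 (0.12, edgeR adjusted p = 0.850). The 3 hosts of the 6 that fell did not pass: edgeR adjusted p for dose was 0.135 for Eef1b2, 0.481 for Eif4a1 and 0.0639 for Eif4a2, and the estimates of Eef1b2 and Eif4a2 were above 0. Small nucleolar RNAs have no poly(A) tail, and oligo-dT priming captures them incompletely. All genes named Snora or Snord took 0.0854% of counts in Control, 0.108% in UPM, 0.0995% in TZ1.25, 0.0645% in TZ2.5 and 0.0458% in TZ5. The mitochondrial ribosomal RNAs took 7.94, 8.80, 8.64, 7 and 7.06% in the same order. The part of that shift in the members' values was not tested.

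**Figure D4:**
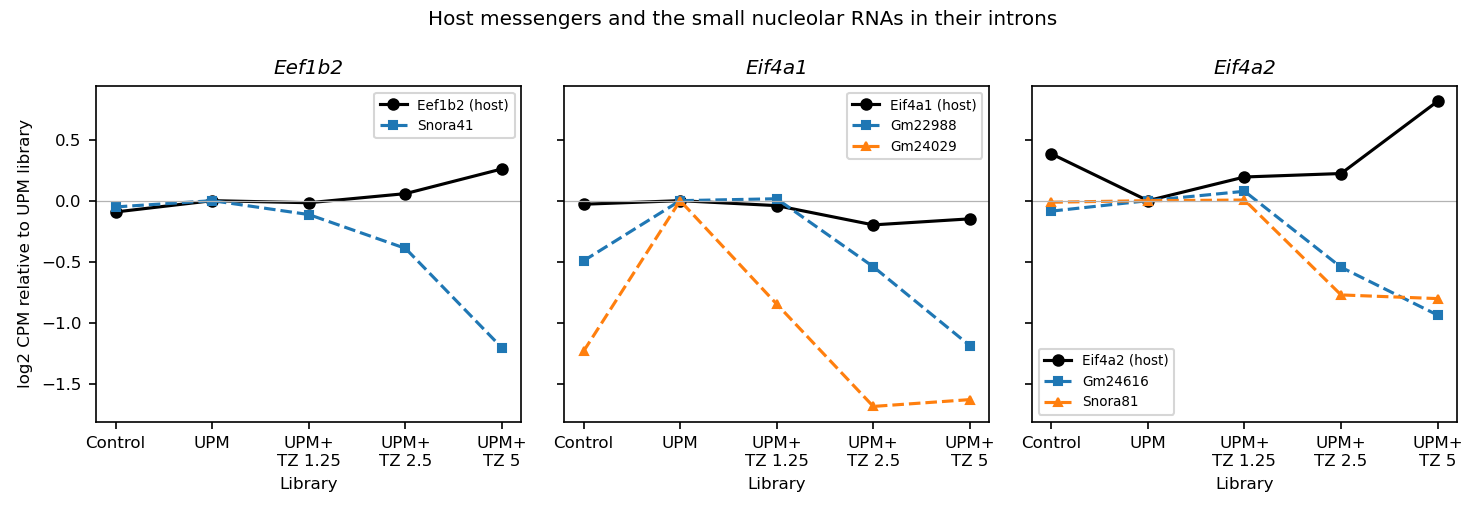
Level relative to the UPM library (log2 of CPM, vertical axis) in each of the 5 libraries for 3 host genes (black, solid) and the small nucleolar RNAs in their introns with enough counts (coloured, dashed). At TZ5 all 5 plotted small nucleolar RNAs lie below UPM, while Eef1b2 and Eif4a2 lie above it and Eif4a1 slightly below.

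The regulators of these factors were read from lists. For every list below, the shares over all genes were 1.67% higher and 1.41% lower in UPM against Control. Against UPM they were 1.19% and 1.03% in TZ1.25, 2.67% and 1.73% in TZ2.5, and 3.78% and 2.8% in TZ5. With dose, 2.79% rose and 2.91% fell. The lists are too small for their counts to be read against these shares. Of 12 kinases, phosphatase subunits and partners that act on eIF2, 11 were measured and 0 were called in any of the 4 pairs. With dose, 1 of 12 fell, Ppp1ca, a catalytic phosphatase subunit with many other substrates (−0.11, SE 0.024, edgeR adjusted p = 0.00198). The median log2 fold of this list was −0.02 in UPM against Control. Against UPM it was 0.10 in TZ1.25, 0.09 in TZ2.5 and −0.02 in TZ5. Eif2ak3, the kinase PERK, had 12.4 CPM in Control, 11.5 in UPM, 16.4 in TZ1.25, 13.7 in TZ2.5 and 10.6 in TZ5. Its highest library was TZ1.25, at a fold against UPM of 1.42 (1.07 to 1.90).

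Of 19 genes of mTORC1 and MAPK signalling to translation, 18 were measured in UPM against Control. Rptor at 1.62 (1.25 to 2.12) and Tsc2 at 1.68 (1.26 to 2.26) were higher there and Mlst8 at 0.531 (0.399 to 0.701) lower. Rptor and Mlst8 belong to mTORC1 and Tsc2 restrains it. Tsc2 was lower in TZ1.25 against UPM at 0.530, Mlst8 higher in TZ2.5 at 1.79 and Rptor lower in TZ5 at 0.636, and none of the 3 passed the dose test. Each had at most 157 counts in a library. Larp4, which binds poly(A), fell with dose (−0.10, SE 0.024, edgeR adjusted p = 0.00333), 1 of 19.

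Of 19 poly(A)-binding, termination and recycling genes, 17 were measured and 1 was called in TZ5 against UPM. Pabpc1, the poly(A)-binding protein that contacts eIF4G, had 6922 CPM in Control, 6122 in UPM, 5998 in TZ1.25, 4533 in TZ2.5 and 3969 in TZ5. Each library was lower than the one before in that order. Its fold in TZ5 against UPM was 0.648 (0.639 to 0.658), and it fell with dose by 0.14 (SE 0.021, edgeR adjusted p = 3.83e-06). Its paralog Pabpc4 had 346 CPM in Control, 248 in UPM, 262 in TZ1.25, 314 in TZ2.5 and 306 in TZ5. Of 10 hypusine, diphthamide and selenocysteine genes tested, Dohh was the 1 that fell with dose and 0 rose. Of 10 mitochondrial translation factors, 9 were measured. Mrrf, a recycling factor, was higher in UPM against Control at 1.72 (1.29 to 2.29) and lower in TZ5 against UPM at 0.643 (0.482 to 0.853), and 0 of 10 passed the dose test.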

How the data were processed

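The authors deposited raw read counts by gene symbol in a separate file for each library. STAR, edgeR and GRCm39 are named, without versions, in the submitters' processing notes. Reads were single-end of 75 bp from QuantSeq 3′ libraries, per the labels' protocols. For the counting program, annotation and strand handling, nothing was found: not given in the sources used here. Members and lists were chosen with earlier results of these data known.

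Folds between libraries are ratios of TMM-scaled CPM with 95% exact conditional binomial (Clopper-Pearson) intervals, which cover counting error only, since each group has 1 library. Reads carry no molecular identifiers, so copies of the same molecule cannot be told from separate molecules, which the intervals do not cover. Shares within paralog pairs have Clopper-Pearson intervals. A call required a fold of 1.5, an interval without 1 and a mean of 10 CPM. The dose fit used edgeR 4.0.16 in R 4.3.3 (glmQLFit, glmQLFTest; particles as 0 or 1, dose as a number) on 12381 genes kept by filterByExpr, with 2 residual degrees of freedom and a prior of 63.5. DESeq2 1.42.0 was an alternative. Standard errors were derived from the estimate and its F statistic. Genes named are members called in any pair or term, the member with the highest mean CPM in each complex, the extremes of the UPM and TZ5 folds and a fixed core of initiation and elongation factors; Eif2b2, Eif3j2, Eif4e2, Eif4g3, Eif1a and the partner genes outside that rule were chosen after their values were seen. Small nucleolar RNA hosts, 3′-end neighbours and promoters came from GRCm38 annotation, used for no count.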

Additional observations from a re-analysis of the deposited data

How the results depend on the processing

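No paired analysis was possible because each group had 1 library. With 1 library a group, no spread between replicates exists, and leaving out a trazodone or UPM library leaves the lone Control assumed to vary like the rest. A fold limit of 2 gave 0 lower in UPM against Control, 0 higher in TZ2.5, and 0 higher and 0 lower in TZ5 against UPM. Over all measured genes that limit gave 5 lower in UPM against Control, 12 higher in TZ2.5, and 13 higher and 21 lower in TZ5. A limit of 1.25 gave 4 of 58 members lower in UPM against Control, beside 616 of 8282 genes. In TZ1.25 it gave 3 higher, beside 512 of 8336 genes. In TZ2.5 it gave 8 higher and 3 lower, beside 920 and 818 of 8337 genes. In TZ5 it gave 9 higher and 6 lower, beside 1157 and 1004 of 8367 genes. A minimum of 1 CPM, or no minimum, gave 1 higher in UPM against Control, Eef2k. Over all genes these settings gave 544 of 11941 and 708 of 19451 higher. A minimum of 30 CPM left 3 of 50 members higher in TZ5, beside 133 of 5387 genes. It also moved the median log2 fold of eIF4A and its helpers to −0.017 in TZ2.5 and −0.028 in TZ5, from 0.16 and 0.09. Scaling by total counts gave 1 lower in TZ5 against UPM, a split of 6 to 1 instead of 5 to 2. Over all 8367 genes it gave 349 higher and 216 lower. TZ5 against Control, a comparison chosen after seeing the data, gave 2 higher and 0 lower. With dose as a rank the dose term had 7 lower, beside 466 of 12381 genes. Leaving out 1 library gave 2 to 5 higher and 2 to 4 lower for the dose term, and 0 to 1 lower for the UPM term. Among the 12207 to 12289 genes tested in those fits, the dose term called 99 to 304 higher and 103 to 295 lower. The UPM term called 8 to 48 of them lower. Over all genes, the dose term called 346 higher and 360 lower, 334 and 223 with total-count scaling, 175 and 154 with DESeq2, and 99 and 103 without UPM. The medians recomputed were those of complexes and of all members. A move was set against counting error, not against differences between genes. That error was the log2 counting interval from its middle to its end, as a median over the members concerned. Of 192 recomputed medians, 190 moved by less than that error and 5 changed sign, those of eIF4A included. The cause was not tested, except that the 30 CPM minimum leaves out Eif4a2. Depth limits the members near 10 CPM most: the fold of Eif4a2 in TZ5 against UPM carried an interval of 1.34 to 2.32, and that of Eif3a one of 1.5 to 1.61.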

Other observations

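Base composition overlapped between the members that rose and fell with dose. In the longest coding transcript of the reference annotation, the 5 that rose had a median GC content of 44.5%, the 4 that fell 53.2% and the 50 not called 50.2%. Of those that rose, Eef1d had 56.1%, above all 4 that fell, and of those that fell, Eif1ax had 39.7%, below all 5 that rose. Among all tested genes with a transcript, the medians were 47.4% for those that rose, 52.3% for those that fell and 50.1% for the rest. Spearman's rho between the dose estimate and GC content was −0.26 over 59 members and −0.08 over 10547 genes, estimates that all come from the same 5 libraries. The part of base composition in the members' values was not tested.

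Summed over its rows, eIF2B had 445 CPM in Control, 426 in UPM, 406 in TZ1.25, 396 in TZ2.5 and 378 in TZ5, and the inhibitors of eIF4E had 331, 331, 327, 289 and 260 CPM. eEF1B and its partners had 853, 877, 853, 963 and 1078 CPM in the same order. eIF2B and the inhibitors were lowest at TZ5 and eEF1B was highest there, as levels of single libraries with no test of the sums.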
